A study of Drosophila melanogaster with 20 samples.

Results

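FNE and RBP9 are RNA-binding proteins of the ELAV family, which in Drosophila neurons bind U-rich stretches of RNA and affect splicing, the choice of the RNA's end, stability and translation. Related proteins of a family can act on the same RNAs and stand in for each other. A set of 45 genes was chosen by read counts of adult fly heads, as those that were highest in the absence of both proteins. In all 5 libraries of flies lacking both proteins these genes had a higher level than in every one of the 15 other libraries, and their mean was at least 1.4 times the highest mean of the other 3 groups. The rule does not require the single mutants to match wild type. Levels are given as CPM, the count of a gene divided by the sum of all counts of its library and multiplied by 1000000. The count table held 17558 genes, and the rule was applied to the 8998 with a mean raw count of at least 50 over the 20 libraries. The 45 genes are 0.5% of these. Since the levels of the double mutant chose the genes, every value that sets it against the other groups is a description, and no test is given for it.

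The RNA came from adult Drosophila melanogaster heads, taken 1 day after eclosion from flies raised at 25 °C, and was sequenced after removal of ribosomal RNA, with 5 libraries for each of 4 genotypes. Wild type was the w1118 stock. Δfne females carried Df(1)fneΔ over fneKOZ2 and Δfne males carried 1 of these alleles. Δrbp9 flies of both sexes carried rbp9P2690 over Df(2L)ED206, a deletion that also removes neighbouring genes from 1 copy of chromosome arm 2L. The double mutant, ΔfneΔrbp9, combined these X and second chromosomes. Heads of males and females were pooled in equal numbers, and the study describes the 5 libraries as independent replicates. The labels describe no other chromosome, and the gene w, which is defective in w1118, had mean CPM values of 0.208 (wild type), 245 (Δfne), 129.7 (Δrbp9) and 332 (double mutant). Loss of the proteins and other differences between the stocks therefore cannot be told apart. Heads hold brain, eyes, fat body, muscle, glia and cuticle, and in such bulk samples more cells of a type and more RNA per cell cannot be told apart.

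Total counts ranged from 10289950 to 25325636 per library, and the double mutant had both the lowest total and a range, 10289950 to 18757832, that overlapped those of the other groups. Rbp9 had mean CPM values of 478 (wild type), 597 (Δfne), 19.3 (Δrbp9) and 18.2 (double mutant), and fne had mean CPM values of 193 (wild type), 86.6 (Δfne), 215 (Δrbp9) and 87.4 (double mutant), so the levels of both targeted genes followed the labels. The remaining fne reads are not resolved by position in a table of gene counts. The lncRNA mimi, which the study examined as an RNA that depends on both proteins, had mean CPM values of 941 (wild type), 852 (Δfne), 747 (Δrbp9) and 215 (double mutant). Markers of neurons, glia and photoreceptors were all present. The summed CPM of 8 neuronal markers was 5266 to 5878 in wild type and 5266 to 5422 in the double mutant, and for 8 photoreceptor markers it was 26093 to 28884 and 27784 to 29114. For 8 glial markers it was 4054 to 4619 in wild type and 3764 to 3946 in the double mutant, but also 3732 to 4009 in Δrbp9. For 7 muscle markers it was 15725 to 19881 in wild type, 14567 to 16082 in Δrbp9 and 13754 to 15730 in the double mutant, and for 7 hemocyte markers 1690 to 2172 in wild type, 1495 to 1782 in Δfne and 1459 to 1649 in the double mutant. The sum of 10 gut markers, none of which is in the set, was 14.9 to 26.5 in wild type, but single libraries reached 470.3 in Δfne, 191 in Δrbp9 and 248 in the double mutant. What part such cell content had in the levels below was not tested.

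The 45 genes together took 2433 to 2843 CPM of a wild-type library, 2773 to 3139 CPM of a Δfne library and 3094 to 3386 CPM of a Δrbp9 library. In the double mutant they took 5240 to 5940 CPM. The ratio of the double mutant mean to the highest other group mean had a median of 1.55, was at least 2 for 6 genes and reached 4.71. Against wild type alone the median ratio was 2.06, from 1.41 to 18.0. The highest of the other means was that of Δrbp9 for 23 genes, of Δfne for 16 and of wild type for 6. Thus 24 genes had higher means in both single mutants than in wild type, while for 6 genes both single mutant means lay below wild type. Without the condition on the size of the ratio, 183 of the 8998 genes (2.03%) had all 5 double mutant libraries above the 15 others. In the other direction, 290 genes (3.22%) lay below all others and 40 (0.445%) met the mirror image of the whole rule.

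**Figure D1:**
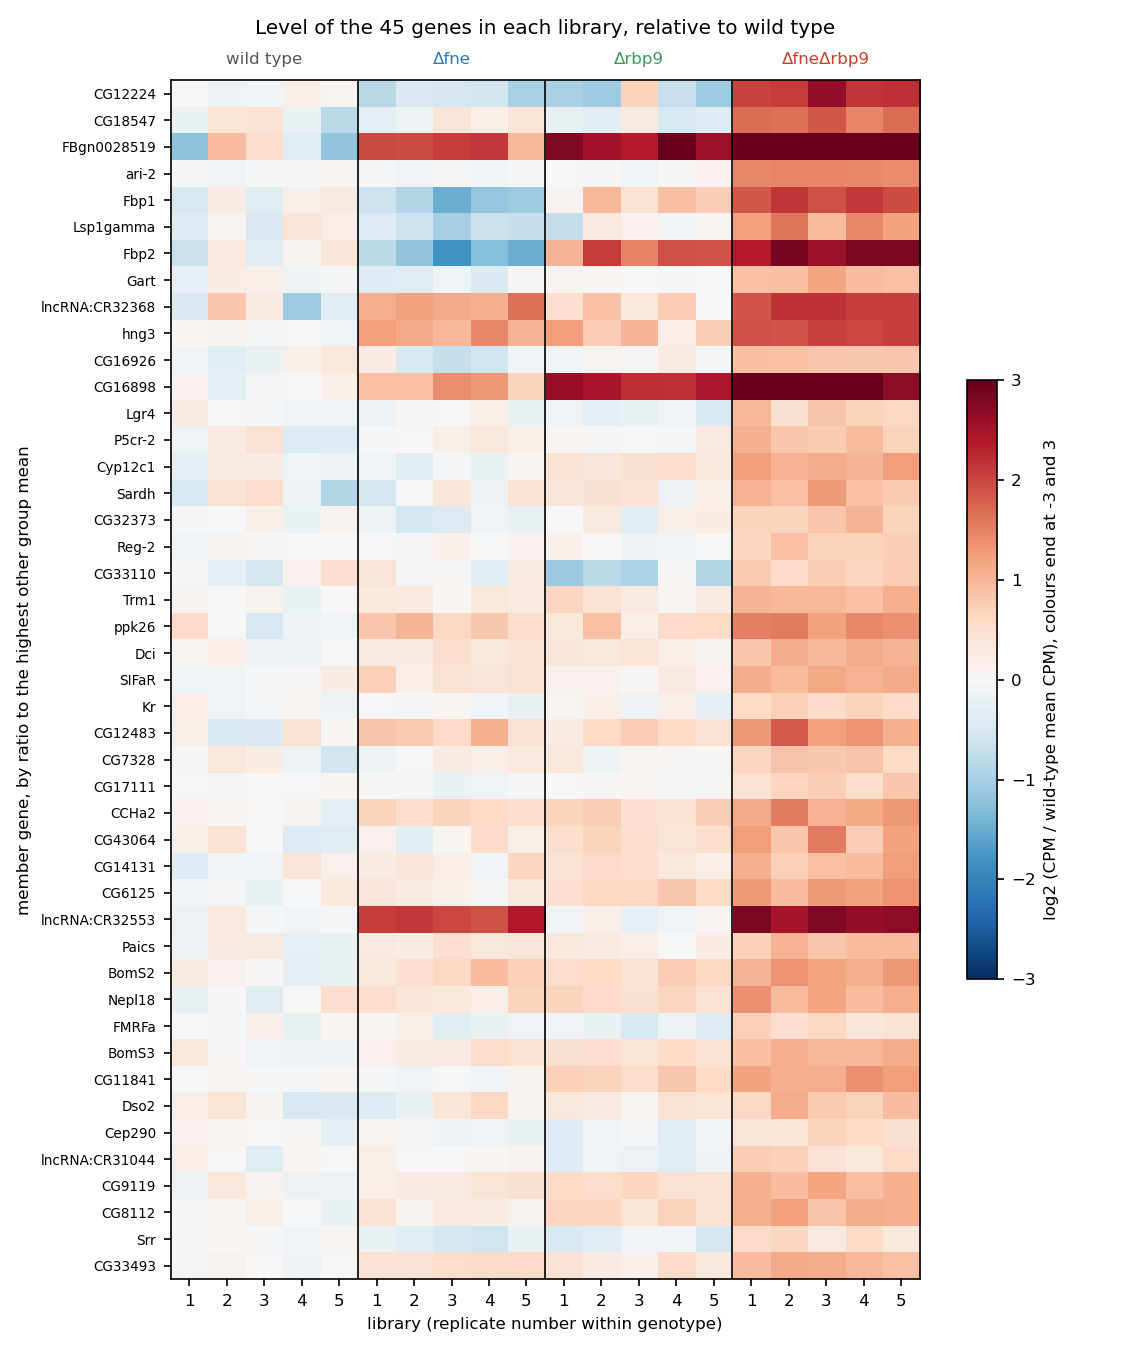
Each row is 1 of the 45 genes and each column 1 of the 20 libraries. Colour gives log2 of the CPM relative to the wild-type mean of that gene, with colours ending at −3 and 3, and the 5 columns on the right, which chose the genes, are the highest of every row.

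If the ratios of the single mutants to wild type are multiplied, 41 of the 45 genes had a double mutant level above that product, and 4 had one below it. The rule forces a level above the product for every gene with a single mutant mean at or below that of wild type. Only for the 24 genes with both single mutant means above wild type could the level fall on either side. The product is a reference point for levels and not a test. The genes of the set fall into several shapes. Some, such as ari-2, were level in the other 3 groups. Others stepped up with each loss, as CCHa2 did, or were low in 1 single mutant only, as Fbp1 was in Δfne.

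**Figure D2:**
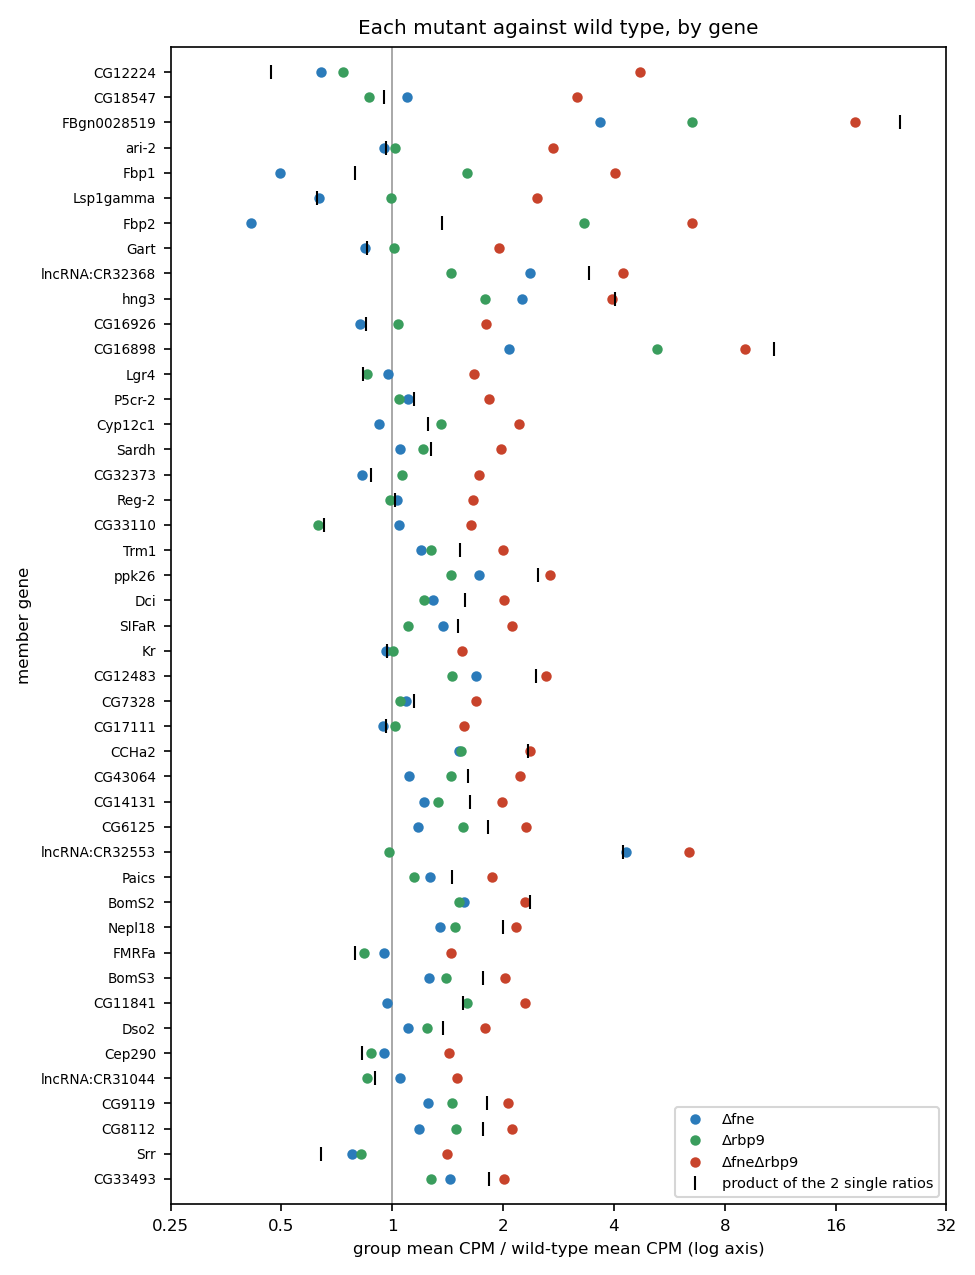
Points give the group mean CPM divided by the wild-type mean on a log axis for Δfne, Δrbp9 and ΔfneΔrbp9, and the black mark is the product of the 2 single ratios. The double mutant lies to the right of the mark for 41 of the 45 genes, which the rule forces unless both single mutant means exceed wild type.

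CG12224 and CG18547 had the largest ratios. Both encode proteins of the aldo-keto reductase family, enzymes that reduce carbonyl groups, and they lie next to each other on 3R, on the same strand and 0.314 kb apart (BDGP6 coordinates here and below). CG12224 (FBgn0037974, 3R, 11980704 to 11982062, minus strand) had CPM values of 4.35, 3.89, 4.08, 4.8 and 4.58 in wild type, of 2.45, 3.22, 3.06, 2.96 and 2.2 in Δfne, of 2.23, 2.07, 6.88, 2.69 and 2.06 in Δrbp9 and of 17.6, 18.6, 26.8, 19.2 and 19.95 in the double mutant. The double mutant libraries ranged from 17.6 to 26.8 CPM, and the highest other library, Δrbp9 replicate 3, was at 6.88 CPM. Its raw counts were 65 to 88 in wild type and 198 to 421 in the double mutant. CG18547 (FBgn0037973, 3R, 11978574 to 11980390, minus strand) had CPM values of 12.9, 19.6, 20.1, 13 and 8.48 in wild type, of 12.2, 13.3, 19.2, 16.5 and 19.7 in Δfne, of 12.6, 11.8, 17.7, 10.5 and 11.3 in Δrbp9 and of 47.4, 46.6, 53.7, 41 and 47 in the double mutant. Its mean was 2.91 times that of Δfne, the next highest group, and its lowest double mutant library was 2.04 times the highest of the others. The next gene on the other side of CG12224, CG3397 (FBgn0037975, 3R, 11983098 to 11984541, minus strand), of the same family and strand and named after its values were seen, had mean CPM values of 28.2 (wild type), 0.906 (Δfne), 14.2 (Δrbp9) and 2.63 (double mutant), so it was lower in every mutant than in wild type. Thus 3 neighbouring genes of 1 family held different patterns over the 4 genotypes. How reads shared between such related genes were counted is not given in the sources used here.

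ari-2 (FBgn0025186, 2R, 22212835 to 22217264, plus strand) encodes an E3 ubiquitin ligase of the RING-between-RING kind, which attaches ubiquitin to other proteins. It had CPM values of 52.8, 50.4, 55.7, 55 and 55.8 in wild type, of 51.4, 50.01, 51.7, 50.7 and 51.8 in Δfne, of 53.8, 55.3, 50.2, 55 and 59.3 in Δrbp9 and of 147, 149, 149, 146 and 145 in the double mutant. Its spread was small, with an SD of 1.85 CPM in the double mutant, and the 15 other libraries all lay between 50.01 and 59.3 CPM. The double mutant mean was 2.69 times the highest other mean. Of 5 RING-between-RING ligase genes with sufficient counts, ari-2 was the only one whose double mutant libraries stood above all others, and the median ratio of the double mutant to wild type over the 5 was 0.946.

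The set held 3 genes of the larval fat body, the insect counterpart of liver and adipose tissue. Lsp1gamma encodes a subunit of larval serum protein 1, an amino acid store of the hemolymph, Fbp1 encodes the receptor that takes such proteins back into the fat body, and Fbp2 is a fat body protein induced late in larval life. Fbp1 (FBgn0000639, 3L, 14094589 to 14098053, minus strand) had CPM values of 98.1, 159, 107, 155 and 165 in wild type, of 88.9, 73.9, 49, 61.5 and 65 in Δfne, of 148, 275, 188, 254 and 229 in Δrbp9 and of 498, 601, 519, 598 and 535 in the double mutant. Fbp2 (FBgn0000640, 2L, 9426784 to 9427917, plus strand) had CPM values of 9.94, 19.3, 12.6, 17.2 and 20.3 in wild type, of 9.12, 7.02, 4.49, 6.52 and 5.62 in Δfne, of 32.4, 67.4, 44.3, 60.2 and 58.4 in Δrbp9 and of 83.2, 114, 94.8, 112 and 113 in the double mutant. Lsp1gamma (FBgn0002564, 3L, 66430 to 68995, plus strand) had CPM values of 44, 59.6, 42.7, 74.9 and 65.7 in wild type, of 43.4, 37, 28.9, 36.4 and 35.2 in Δfne, of 35, 70.9, 63.1, 54.5 and 60.7 in Δrbp9 and of 134, 174, 111, 157 and 133 in the double mutant. For each of the 3 genes Δfne held the lowest mean of the 4 groups, and the double mutant mean was 4.02, 6.52 and 2.47 times that of wild type for Fbp1, Fbp2 and Lsp1gamma. Over the 20 libraries, deviations from the group means correlated with a Pearson r of 0.966 for Fbp1 with Fbp2 and 0.836 for Fbp1 with Lsp1gamma, a description over libraries of 4 groups, while the median over all 990 pairs of the 45 genes was 0.00683.

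Not every gene of this kind followed. Lsp2 had mean CPM values of 486 (wild type), 136 (Δfne), 599 (Δrbp9) and 1088 (double mutant), but its libraries overlapped between the groups. Lsp1beta had mean CPM values of 119.9 (wild type), 38.5 (Δfne), 265 (Δrbp9) and 261 (double mutant), and Lsp1alpha had mean CPM values of 26 (wild type), 11.8 (Δfne), 41.7 (Δrbp9) and 47.4 (double mutant), so for these the double mutant stood near Δrbp9. A list of 10 fat body markers held these 6 genes, the yolk protein genes and apolpp. Without Fbp1, Fbp2 and Lsp1gamma, the summed CPM of the list was 5011 to 26868 in wild type and 8105 to 13044 in the double mutant, with 6516 to 13093 in Δfne and 13145 to 17921 in Δrbp9. The double mutant range thus lay within that of wild type and below that of Δrbp9. This sum is mostly Yp1, Yp2, Yp3 and apolpp, which had lower means in the double mutant than in wild type (2320 against 3995 CPM for Yp1, 3385 against 5233 CPM for apolpp) and spread widely within wild type. The median ratio of the double mutant to wild type over the 10 genes, the 3 of the set included, was 2.003. The part that fat body content has in the levels of Fbp1, Fbp2 and Lsp1gamma was not tested.

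**Figure D3:**
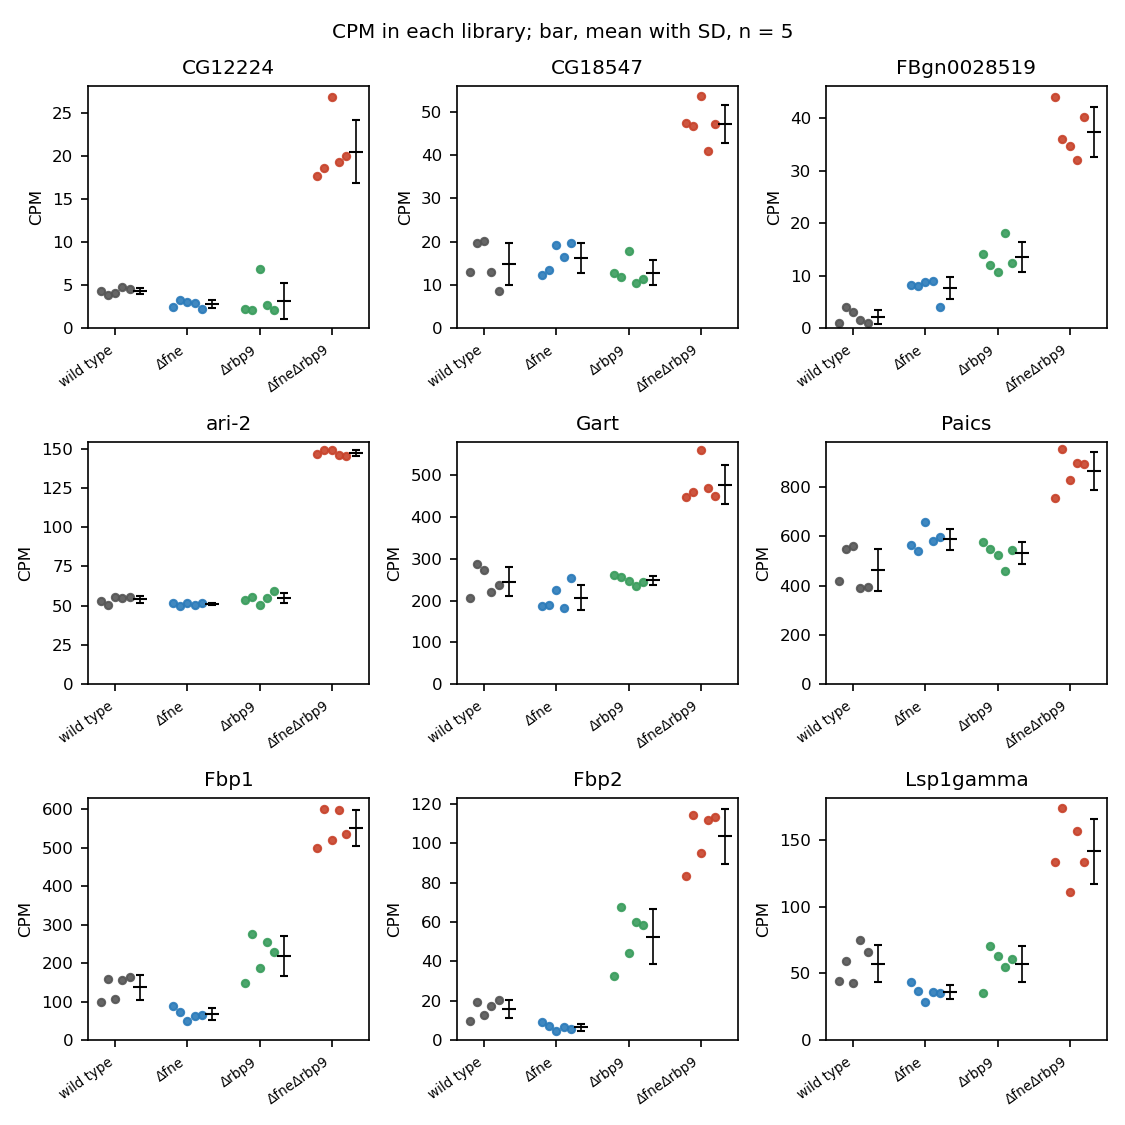
Each panel shows 1 gene, with the CPM of every library as a point and the mean with SD (n = 5) beside it, on an axis that starts at 0. The double mutant points lie above all others in each panel, Fbp1, Fbp2 and Lsp1gamma are lowest in Δfne, and ari-2 is level over the other 3 groups.

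Gart and Paics encode enzymes of purine synthesis. Gart is a protein with several activities that acts early in the pathway, and Paics carries out the carboxylation and ligation steps that follow. Gart (FBgn0000053, 2L, 7014623 to 7023898, minus strand) had CPM values of 207, 288, 273, 221 and 238 in wild type, of 187, 189, 224, 183 and 253 in Δfne, of 261, 257, 247, 234 and 244 in Δrbp9 and of 448, 461, 560.4, 469 and 449.9 in the double mutant. Double mutant replicate 3 was the highest of its group, and the lowest of the group was 1.56 times the highest of the 15 others. Paics (FBgn0020513, X, 12757036 to 12760617, minus strand) had CPM values of 418, 550.5, 561, 391 and 395 in wild type, of 564, 541, 657, 582 and 596 in Δfne, of 578, 549, 526, 461 and 544 in Δrbp9 and of 756, 954, 829, 899 and 894 in the double mutant. It had the highest double mutant mean of the 45 by CPM, 866 against 826 for BomS3, although BomS3 had the higher mean in Δrbp9 (573 against 532). Its highest library outside the double mutant belonged to Δfne, at 657 CPM. Of 7 purine synthesis genes looked at after the values were seen, Prat2 and Pfas had double mutant means 1.22 and 1.24 times the highest other mean with overlapping libraries, Prat and bur had 0.972 and 0.984, and ras, which acts on the branch to guanine nucleotides, had 0.737. The last of these was lower in the double mutant, with 135 to 149.8 CPM against 189 to 199.9 CPM in wild type.

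Several other enzymes of small molecule metabolism were in the set. P5cr-2, an enzyme of proline synthesis, had CPM values of 23.4, 31.2, 35.2, 19.4 and 19.7 in wild type, of 25.1, 26.1, 28.9, 32.8 and 29 in Δfne, of 27, 25.2, 25.7, 25.2 and 31.2 in Δrbp9 and of 54.4, 45.7, 44.4, 49.95 and 41.9 in the double mutant. Sardh, which degrades sarcosine in mitochondria, had CPM values of 12.5, 23.5, 25.4, 15.4 and 9.4 in wild type, of 12.2, 17.2, 22.3, 15.2 and 23.2 in Δfne, of 22.5, 24.2, 23.2, 15.2 and 19.6 in Δrbp9 and of 35.3, 31.7, 41.8, 31.7 and 29.8 in the double mutant. For both genes the 3 lower groups overlapped. Their double mutant means were 1.67 and 1.63 times the highest other mean, and wild type spread widely for both, from 19.4 to 35.2 CPM for P5cr-2 and from 9.4 to 25.4 CPM for Sardh. Srr, a serine racemase, had CPM means of 16.4 ± 0.918 (wild type), 12.8 ± 1.65 (Δfne), 13.4 ± 1.84 (Δrbp9) and 23.1 ± 2.57 (double mutant) (SD, n = 5). In neighbouring steps, looked at after the values were seen, P5cr had a ratio of 0.938 and Shmt one of 1.23, while Gnmt, which makes sarcosine from glycine, had mean CPM values of 16.4 (wild type), 14.3 (Δfne), 4.51 (Δrbp9) and 3.03 (double mutant). Deviations of Sardh from its group means correlated with those of CG18547 (Pearson r 0.879) and Gart (0.766) over the 20 libraries.

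Cyp12c1 is a mitochondrial cytochrome P450 and was the only member of the set among 59 P450 genes with sufficient counts, at CPM means of 11.4 ± 2.02 (wild type), 10.5 ± 1.12 (Δfne), 15.4 ± 1.02 (Δrbp9) and 25.2 ± 1.98 (double mutant). Dci encodes an enoyl-CoA isomerase of fatty acid oxidation and had mean CPM values of 11.7 (wild type), 15.2 (Δfne), 14.3 (Δrbp9) and 23.6 (double mutant). CG33110, a predicted fatty acid elongase, had mean CPM values of 132 (wild type), 138 (Δfne), 82.9 (Δrbp9) and 216 (double mutant), and in Δrbp9 4 libraries were between 62.5 and 75.2 CPM and replicate 4 at 136.5 CPM. Trm1, a tRNA methyltransferase, had mean CPM values of 13 (wild type), 15.6 (Δfne), 16.6 (Δrbp9) and 26 (double mutant). The wild-type mean was the lowest of the 4 for Trm1 and Dci, but Δrbp9 was the lowest for CG33110 and Δfne for Cyp12c1.

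The neuropeptide list held 48 names, of which 32 genes had sufficient counts, and CCHa2 and FMRFa were in the set. CCHa2 is a peptide of gut and fat body that acts on the brain's insulin-producing cells, and FMRFa encodes a precursor of FMRFamide peptides. CCHa2 (FBgn0038147, 3R, 13389059 to 13395197, minus strand) had CPM values of 81.2, 76.9, 73.7, 79.5 and 60.3 in wild type, of 118, 107, 117, 113 and 108 in Δfne, of 117, 124, 106, 101 and 124 in Δrbp9 and of 163, 219, 152, 165 and 182 in the double mutant. All libraries of both single mutants lay above those of wild type and below those of the double mutant. FMRFa (FBgn0000715, 2R, 9906294 to 9910457, plus strand) had CPM values of 5.39, 5.27, 5.97, 4.62 and 5.62 in wild type, of 5.56, 6.02, 4.2, 4.7 and 5.01 in Δfne, of 4.91, 4.69, 3.85, 4.87 and 4.12 in Δrbp9 and of 8.79, 7.62, 8.27, 6.9 and 7.26 in the double mutant. Here wild type, Δfne and Δrbp9 overlapped, and raw counts were 66 to 153 over all libraries. The median ratio of the double mutant to wild type over the 32 genes was 0.988, and Gpb5 was the only one with all 5 double mutant libraries below the 15 others.

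Among 68 receptor genes with sufficient counts the set held SIFaR and Lgr4. SIFaR is the receptor of the neuropeptide SIFamide, and Lgr4 is a G protein-coupled receptor with leucine-rich repeats. SIFaR (FBgn0038880, 3R, 21276664 to 21293998, minus strand) had CPM values of 10.3, 10.5, 10.9, 11.5 and 13.1 in wild type, of 18.5, 12.9, 15.5, 14.6 and 15.3 in Δfne, of 12.3, 12.3, 11.5, 13.4 and 12.4 in Δrbp9 and of 24.1, 21.9, 25.1, 23.3 and 24.5 in the double mutant. Lgr4 (FBgn0085440, X, 13161714 to 13189164, minus strand) had CPM values of 5.44, 4.6, 4.46, 4.25 and 4.3 in wild type, of 4.08, 4.74, 4.54, 5.13 and 3.99 in Δfne, of 4.26, 3.76, 4.03, 4.21 and 3.38 in Δrbp9 and of 9.2, 6.45, 8.34, 7.48 and 7.07 in the double mutant. For SIFaR the single mutant means lay between those of wild type and the double mutant, and for both genes the 3 lower groups overlapped. Octbeta1R and nAChRbeta2 also had their double mutant libraries above all others but a ratio too small for the set, and 3 receptor genes (Dop2R, nAChRbeta1 and mGluR) lay below all others.

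Other genes with known parts in neurons or development had low levels. ppk26 encodes a subunit of a DEG/ENaC channel that larval sensory neurons need to sense harsh touch, and had CPM means of 2.27 ± 0.652 (wild type), 3.9 ± 0.512 (Δfne), 3.29 ± 0.635 (Δrbp9) and 6.1 ± 0.538 (double mutant) (SD, n = 5). Cep290, a protein of the transition zone of cilia, had CPM means of 2.82 ± 0.275 (wild type), 2.67 ± 0.237 (Δfne), 2.46 ± 0.238 (Δrbp9) and 4.02 ± 0.327 (double mutant). Kr, the Krüppel zinc finger transcription factor known as a gap gene of the embryo, had CPM means of 4.71 ± 0.473 (wild type), 4.54 ± 0.335 (Δfne), 4.72 ± 0.604 (Δrbp9) and 7.3 ± 0.307 (double mutant). Cep290 had the lowest mean raw count of the set, 51.3, so its levels rest on few reads per library.

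Small secreted immune peptides formed another group. BomS2 and BomS3 are short Bomanins and Dso2 is a Daisho peptide, and both families are induced through the Toll pathway. BomS2 (FBgn0025583, 2R, 18386602 to 18387030, plus strand) had CPM values of 319, 289, 272, 216 and 230.2 in wild type, of 334, 378, 407, 514 and 438 in Δfne, of 391, 399, 361, 449 and 408 in Δrbp9 and of 534, 671, 604, 567 and 656 in the double mutant. BomS3 (FBgn0040736, 2R, 18387895 to 18388734, plus strand) had CPM values of 510.3, 422, 374, 369.7 and 367 in wild type, of 444, 488, 492, 595 and 559 in Δfne, of 566, 579, 539, 620.5 and 558 in Δrbp9 and of 765, 873, 814, 800.1 and 879 in the double mutant. Dso2 (FBgn0067905, 2R, 20870392 to 20870678, plus strand) had CPM values of 133, 152, 123, 82.1 and 85.2 in wild type, of 86.6, 100.5, 148, 176 and 124 in Δfne, of 146, 139, 122, 157 and 152 in Δrbp9 and of 177, 248, 198, 186 and 218 in the double mutant. For BomS2 all wild-type libraries lay below those of both single mutants, while for BomS3 wild type overlapped Δfne and for Dso2 the 3 lower groups overlapped. The gap to the double mutant was narrow for BomS2 and Dso2, since the lowest double mutant library was 1.04, 1.23 and 1.01 times the highest other for BomS2, BomS3 and Dso2. BomS2 and BomS3 lie 0.865 kb apart on 2R. Per kb of annotated exon, BomS2 had the highest level of the 3 in the double mutant, 1652 CPM per kb against 1074 for BomS3 and 921 for Dso2. For the other genes of these families, looked at after the values were seen, the double mutant libraries overlapped those of another group. Their ratios to the highest other mean were 1.11 (BomS1), 1.14 (BomS4), 1.31 (BomS5), 1.15 (BomS6) and 1.29 (Dso1). For BomS1 and BomS4 every wild-type library lay below all mutant libraries. Ratios of the double mutant to wild type were 2.95 (BomS1), 1.78 (BomS4), 2.86 (BomS5), 1.19 (BomS6) and 1.604 (Dso1). They were 2.29, 2.02 and 1.79 for BomS2, BomS3 and Dso2. Deviations from group means correlated over the 20 libraries with a Pearson r of 0.907 for BomS2 with BomS3 and 0.913 for BomS2 with Dso2. In an immune list of 36 genes with sufficient counts, BomS2, BomS3 and the transcription factor gene Rel had all double mutant libraries above the rest, and the median ratio to wild type was 1.097.

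**Figure D4:**
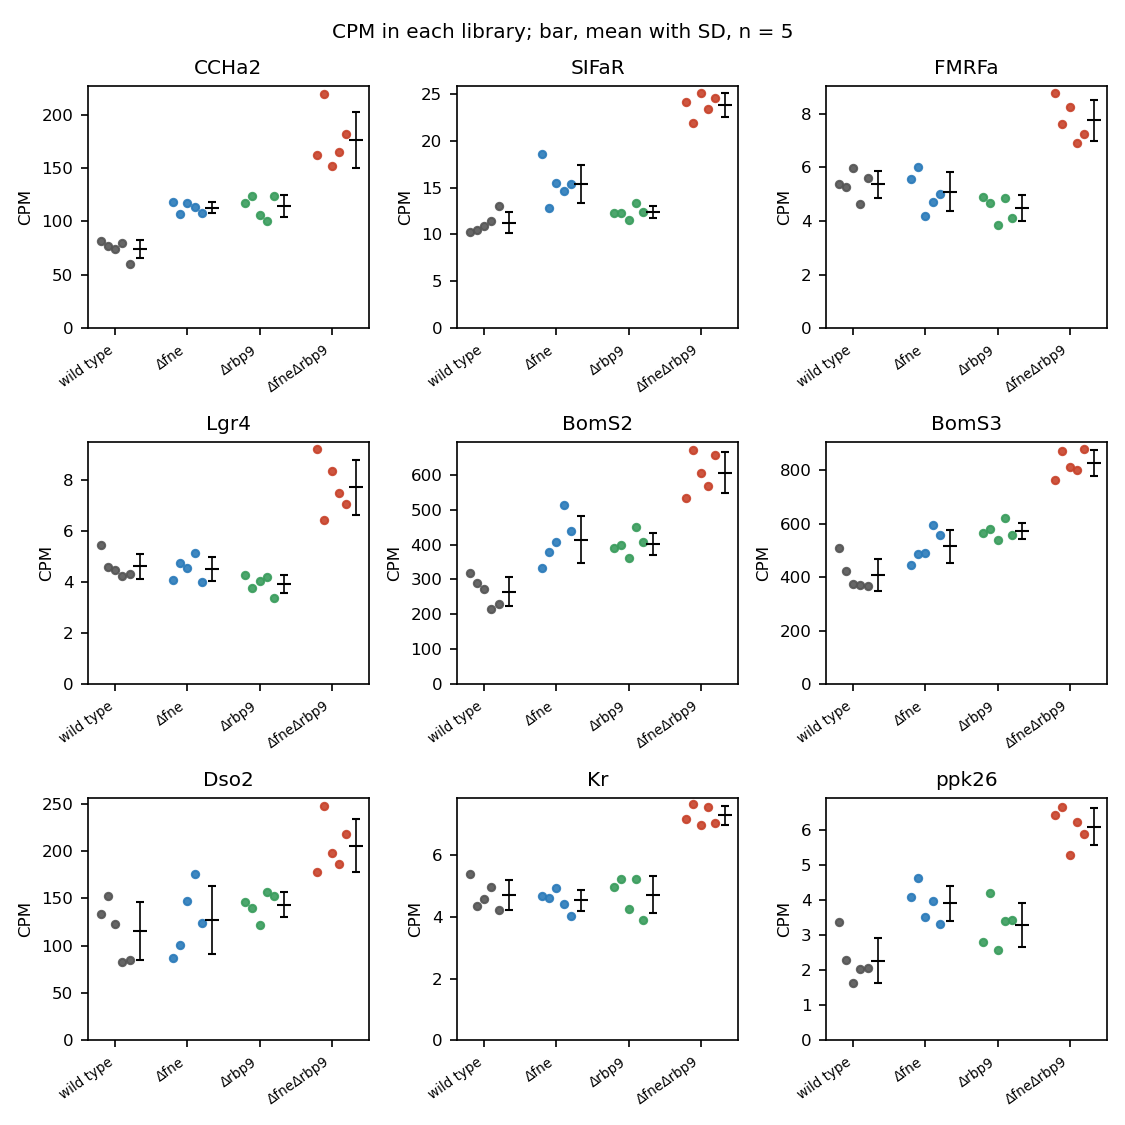
CPM of every library, with the mean and SD (n = 5), for peptide, receptor, immune and developmental genes, on axes that start at 0. CCHa2 steps from wild type to the single mutants to the double mutant, whereas FMRFa, Lgr4 and Kr are near level in the 3 lower groups, and for Dso2 the highest Δfne library reaches almost to the lowest of the double mutant.

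Genes of the annotation class ncRNA made up 3 of the 45 (6.67%), against 1.59% of the 8998 genes. This class leaves out 59 snoRNA, 14 snRNA and 2 rRNA genes with sufficient counts, none of them in the set. lncRNA:CR32368 (FBgn0052368, 3L, 7915437 to 7915846, plus strand) had CPM values of 1.24, 2.99, 2.01, 0.8003 and 1.32 in wild type, of 3.56, 3.86, 3.65, 3.51 and 5.21 in Δfne, of 2.36, 3.05, 2.1, 2.83 and 1.69 in Δrbp9 and of 6.21, 7.57, 7.51, 7.09 and 7.07 in the double mutant. lncRNA:CR32553 (FBgn0052553, X, 18124575 to 18127027, minus strand) had CPM values of 1.04, 1.42, 1.13, 1.11 and 1.15 in wild type, of 4.9, 5.09, 4.69, 4.42 and 6.19 in Δfne, of 1.11, 1.31, 0.992, 1.09 and 1.22 in Δrbp9 and of 8.22, 6.45, 8.02, 7.29 and 7.46 in the double mutant. For both RNAs Δrbp9 and wild type overlapped while every Δfne library was higher than both, and for lncRNA:CR32553 the highest of these came within a factor of 1.04 of the lowest double mutant library. lncRNA:CR31044, which spans the microRNA genes mir-279 and mir-996, had CPM means of 11.1 ± 1.52 (wild type), 11.6 ± 0.592 (Δfne), 9.43 ± 0.828 (Δrbp9) and 16.6 ± 2.08 (double mutant) (SD, n = 5). Mean raw counts were 64.2, 63.1 and 211 for lncRNA:CR32368, lncRNA:CR32553 and lncRNA:CR31044. The count filter used all libraries, those of the double mutant included. High double mutant levels thus raised the means of lncRNA:CR32368 and lncRNA:CR32553, which lay near the cutoff. The share of ncRNA genes in the set therefore depends in part on the levels that chose the genes.

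Other genes had large ratios but no well-known role in heads. FBgn0028519, an ID that the annotation used here does not name, had CPM values of 0.89, 3.94, 3.01, 1.6 and 0.917 in wild type, of 8.23, 8.01, 8.79, 9.003 and 4.04 in Δfne, of 14.1, 11.9, 10.7, 18.2 and 12.5 in Δrbp9 and of 44, 36, 34.7, 32 and 40.3 in the double mutant. The 4 groups did not overlap, although Δfne replicate 5, at 4.04 CPM, lay close to the highest wild-type library, and its ratio of double mutant to wild type, 18, was the largest of the set. CG16898 (FBgn0034480, 2R, 20003620 to 20005003, minus strand) had CPM values of 3.91, 2.94, 3.52, 3.57 and 4.01 in wild type, of 6.6, 6.61, 9.48, 8.84 and 5.73 in Δfne, of 21.9, 19.6, 16.8, 16.3 and 19.4 in Δrbp9 and of 35.5, 34.2, 38.5, 31.4 and 23 in the double mutant. It followed the same order of groups, and the lowest double mutant library was 1.050 times the highest of Δrbp9. hng3 (FBgn0035160, 3L, 737680 to 755489, minus strand), which encodes a MADF domain protein, had CPM values of 2.37, 2.42, 2.2, 2.28 and 2.06 in wild type, of 5.34, 4.97, 4.54, 6.12 and 4.6 in Δfne, of 5.37, 3.82, 4.61, 2.61 and 3.81 in Δrbp9 and of 8.56, 8.42, 9.36, 9.04 and 9.55 in the double mutant. Its wild-type libraries lay below those of both single mutants, which overlapped each other. CG16926 (FBgn0040732, 2R, 19500295 to 19501418, minus strand) had CPM means of 55 ± 10.7 (wild type), 45 ± 12.7 (Δfne), 57 ± 5.23 (Δrbp9) and 99.1 ± 2.85 (double mutant) (SD, n = 5).

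The remaining 13 genes had double mutant means at most 1.62 times the highest other mean. Reg-2, a gene first described for its daily rhythm of expression, had mean CPM values of 40.6 (wild type), 41.8 (Δfne), 40.1 (Δrbp9) and 67.3 (double mutant), and CG17111 had mean CPM values of 165 (wild type), 156 (Δfne), 167 (Δrbp9) and 258 (double mutant). Nepl18, a neprilysin-like peptidase gene, had mean CPM values of 34.9 (wild type), 46.9 (Δfne), 51.7 (Δrbp9) and 75.7 (double mutant), and CG6125 had mean CPM values of 36.7 (wild type), 43 (Δfne), 56.9 (Δrbp9) and 84.8 (double mutant). CG11841, a predicted serine protease, had mean CPM values of 31 (wild type), 30.1 (Δfne), 49.6 (Δrbp9) and 71.2 (double mutant), and CG9119 had mean CPM values of 51.6 (wild type), 64.4 (Δfne), 74.9 (Δrbp9) and 106 (double mutant). CG11841 in Δfne was thus close to its wild-type mean and higher in Δrbp9, while Reg-2 and CG17111 were near level outside the double mutant. CG8112, related to acyltransferases that esterify sterols, had mean CPM values of 25.7 (wild type), 30.4 (Δfne), 38.2 (Δrbp9) and 54.2 (double mutant). CG33493 had mean CPM values of 18.5 (wild type), 26.6 (Δfne), 23.5 (Δrbp9) and 37.2 (double mutant). The other 5 genes were scarce, with double mutant means below 9 CPM. CG32373 had mean CPM values of 3.11 (wild type), 2.57 (Δfne), 3.3 (Δrbp9) and 5.35 (double mutant), and CG12483 had mean CPM values of 3.04 (wild type), 5.14 (Δfne), 4.41 (Δrbp9) and 7.94 (double mutant). CG7328 had mean CPM values of 4.87 (wild type), 5.32 (Δfne), 5.1 (Δrbp9) and 8.21 (double mutant). CG43064 had mean CPM values of 2.79 (wild type), 3.1 (Δfne), 4.04 (Δrbp9) and 6.22 (double mutant), and CG14131 had mean CPM values of 3.38 (wild type), 4.12 (Δfne), 4.49 (Δrbp9) and 6.69 (double mutant). For CG12483 the lowest double mutant library was 1.01 times the highest of Δfne, and for CG43064 and CG14131 the corresponding ratios to the highest other library were 1.06 and 1.053. CG33493, Srr and CG8112 were the 3 genes closest to the threshold of 1.4, with ratios of 1.4005, 1.41 and 1.42. The 3 genes closest to it on the other side were CG5966, CG13795 and CG31075, with 1.399, 1.39 and 1.378. The rule therefore parts genes that differ little in level.

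The single mutants could be compared with wild type and with each other without the double mutant libraries. The rule bounds the single mutant and wild-type means only from above. In Δfne against wild type, 740 of 10639 genes were called by the edgeR quasi-likelihood test (6.96%; Benjamini-Hochberg adjusted p below 0.01, absolute log2 fold change above 0.5). Of the 45 genes 10 were called, 7 higher and 3 lower, against 3.38% higher and 3.57% lower over all genes. lncRNA:CR32553 (log2 fold change 2.08, SE 0.136, adjusted p 1.21e-06), hng3 (log2 fold change 1.15, SE 0.106, adjusted p 1.62e-05), CG16898 (log2 fold change 1.04, SE 0.149, adjusted p 0.000433) and CCHa2 (log2 fold change 0.58, SE 0.0701, adjusted p 0.000128) rose in Δfne. FBgn0028519 (log2 fold change 1.85, SE 0.388, adjusted p 0.00542), BomS2 (log2 fold change 0.63, SE 0.124, adjusted p 0.00385) and CG33493 (log2 fold change 0.51, SE 0.058, adjusted p 8.85e-05) were called higher too. Fbp2 (log2 fold change −1.31, SE 0.227, adjusted p 0.00171), Fbp1 (log2 fold change −1.04, SE 0.187, adjusted p 0.00213) and CG12224 (log2 fold change −0.66, SE 0.121, adjusted p 0.00242) fell. In the list of 10 fat body markers 5 fell in Δfne, Fbp1 and Fbp2 among them, and none rose. Against wild type, 2 of the list rose in Δrbp9, Fbp2 among them, and none fell. The median log2 fold change was 0.12 over the 45 genes and 0.00 over all genes tested.

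Some of these calls in Δfne lay near a cutoff and did not hold under every alternative. FBgn0028519 lost its call without wild-type replicate 1 or 4 or without Δfne replicate 1, 2, 3 or 4, with edgeR adjusted p-values from 0.0119 to 0.0163. BomS2 lost it without Δfne replicate 3, 4 or 5 (0.01001 to 0.0118). CG33493 fell under the fold change cutoff without wild-type replicate 4 or Δfne replicate 3, 4 or 5, at log2 fold changes of 0.47 to 0.50. CG12224 was not called with all 4 groups in the fit (adjusted p 0.063).

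In Δrbp9 against wild type, 723 of 10516 genes were called (6.88%, with 3.0% higher and 3.87% lower), and 9 of the 45 were called, all higher. CG16898 (log2 fold change 2.35, SE 0.104, adjusted p 6.69e-08), FBgn0028519 (log2 fold change 2.65, SE 0.355, adjusted p 0.000302), Fbp2 (log2 fold change 1.69, SE 0.234, adjusted p 0.00038), CG11841 (log2 fold change 0.64, SE 0.0583, adjusted p 1.90e-05), CG6125 (log2 fold change 0.60, SE 0.0958, adjusted p 0.000986) and CCHa2 (log2 fold change 0.59, SE 0.0812, adjusted p 0.000383) rose. BomS2 (log2 fold change 0.56, SE 0.102, adjusted p 0.00201), CG8112 (log2 fold change 0.54, SE 0.0787, adjusted p 0.000547) and hng3 (log2 fold change 0.80, SE 0.169, adjusted p 0.00513) were called higher as well. Fbp2 was thus called in opposite directions in the single mutants, and FBgn0028519, CG16898, hng3, CCHa2 and BomS2 were called higher in both, by comparisons that share the wild-type libraries. hng3 lost its call in Δrbp9 without any 1 of 8 libraries (wild-type replicate 1, 3, 4 or 5 or Δrbp9 replicate 1, 2, 3 or 5; edgeR adjusted p from 0.0108 to 0.0153). BomS2 without wild-type replicate 4, at a log2 fold change of 0.50 (0.497), and CG8112 without wild-type replicate 5, at 0.49, fell under the fold change cutoff. In the immune list, 6 of 44 genes tested rose in Δrbp9, BomS2 among them, and none fell. The median log2 fold change was 0.24 over the 45 genes and 0.00 over all genes.

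Δfne and Δrbp9 were compared directly to ask which genes differed between the single mutants. Of 10568 genes 853 were called (8.07%, with 4.81% higher in Δfne and 3.26% lower), and of the 45 genes 9 were called, 2 higher and 7 lower in Δfne. Fbp2 (log2 fold change −2.99, SE 0.218, adjusted p 1.21e-06), Fbp1 (log2 fold change −1.67, SE 0.181, adjusted p 2.98e-05), CG16898 (log2 fold change −1.30, SE 0.133, adjusted p 2.03e-05) and CG11841 (log2 fold change −0.69, SE 0.0648, adjusted p 9.76e-06) were lower in Δfne than in Δrbp9, and lncRNA:CR32553 (log2 fold change 2.16, SE 0.133, adjusted p 3.11e-07) was higher, in edgeR's test. FBgn0028519 (log2 fold change −0.79, SE 0.2003, adjusted p 0.00964), Lsp1gamma (log2 fold change −0.63, SE 0.158, adjusted p 0.009496), Cyp12c1 (log2 fold change −0.52, SE 0.0829, adjusted p 0.000521) and lncRNA:CR32368 (log2 fold change 0.75, SE 0.179, adjusted p 0.00683) passed with less room. In the list of fat body markers 8 of 10 were lower in Δfne than in Δrbp9, Fbp1, Fbp2 and Lsp1gamma among them, and none higher. The median over the 45 genes was −0.07 against 0.00 over all genes.

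Leaving out 1 library ended 4 of these 9 calls. Without Δfne replicate 2 only 5 of the 45 genes were called. FBgn0028519 lost its call without Δfne replicate 1, 2, 3 or 4 or Δrbp9 replicate 1, 2, 4 or 5 (edgeR adjusted p 0.0123 to 0.0227). Lsp1gamma did so without Δfne replicate 2, 3, 4 or 5 or Δrbp9 replicate 2, 3, 4 or 5 (0.0143 to 0.0271), and lncRNA:CR32368 without Δfne replicate 1, 2, 3 or 5 or Δrbp9 replicate 1, 3 or 5 (0.0104 to 0.0191). Cyp12c1 fell under the fold change cutoff without Δfne replicate 2 or 4 or Δrbp9 replicate 4, at −0.50 to −0.47. With all 4 groups in the fit, FBgn0028519 (edgeR adjusted p 0.0215), Lsp1gamma (0.0104) and lncRNA:CR32368 (0.0208) were not called either. The calls of Fbp1, Fbp2, CG16898, CG11841 and lncRNA:CR32553 held in all 10 fits without 1 library.

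The genes were unevenly spread over the genome. Arm 3L held 16 (35.6%) against 18.9% of the 8998 genes, 3R held 13 (28.9% against 24.3%), and 2R held 9 (20%), which is near its share of all genes. Arm 2L held 3 (6.67% against 17.1%) and X held 3 (6.67% against 16.4%), and FBgn0028519 had no position in the annotation. These shares are a description, since the genes were chosen by their counts.

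**Figure D5:**
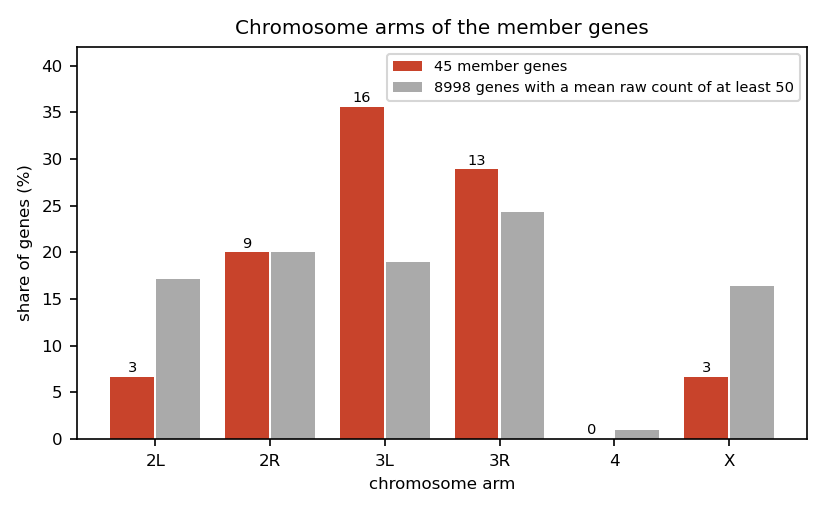
Bars give the share of genes on each chromosome arm in percent, for the 45 genes (number above the bar) and for the 8998 genes that could enter. The share on 3L is 35.6% against 18.9%, and those on 2L and X are 6.67% each against 17.1 and 16.4%.

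The tip of 3L, a stretch picked after the positions were seen, held 7 of the 16. Of 107 genes with sufficient counts in its first 1300 kb, Lsp1gamma, CG12483, Reg-2, hng3, Cep290, Dci and CG9119 were in the set (6.542%), against 9 of 1599 (0.563%) on the rest of the arm. The median ratio of the double mutant to the highest other mean was 0.943 over the 107 and 0.914 over the rest of 3L, and that to wild type was 1.044 and 1.009. All 5 double mutant libraries lay above the 15 others for 8 of the 107 genes (7.48%) and for 32 of the 1599 (2.001%). Reg-2 (FBgn0016715, 3L, 605165 to 606569, minus strand), hng3, Cep290 (FBgn0035168, 3L, 843926 to 851080, plus strand) and Dci (FBgn0035169, 3L, 851346 to 852673, plus strand) lie within a short stretch, and Cep290 and Dci are 0.266 kb apart. The labels give no genotype for the third chromosome, and whether the stocks differ in sequence there was not tested.

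Near the targeted genes, Paics and Lgr4 were 157 and 211 kb from fne on the X chromosome. The windows of 250 kb around fne and Rbp9 were picked after the values were seen. Paics and Lgr4 were 2 of 35 genes with sufficient counts within 250 kb of fne (5.71%), against 0.203% over the whole X arm. The share of the arm rests on 3 genes and includes both of them. All double mutant libraries lay above all others for 3 of the 35 genes (8.57%), against 1.49% over the whole X arm. The median ratio of the double mutant to wild type over the 35 genes was 1.05. No gene of the set lay within 250 kb of Rbp9, where 54 genes had sufficient counts and their median ratio of the double mutant to wild type was 0.735. Both Δrbp9 and the double mutant carried Df(2L)ED206, which removes neighbouring genes from 1 copy of 2L. Its part in these levels was not tested. The 3 genes of the set on 2L (Gart, Fbp2 and Trm1) were at least 4046 kb from Rbp9. Of the 44 genes with coordinates, 19 overlapped another gene, 17 of them on the opposite strand. Among 21 overlapping partners with sufficient counts the ratio ranged from 0.606 to 1.11 with a median of 0.888, and Mcad, which lies within CG32373, was the only one whose double mutant libraries were above all others. FER, on the strand opposite Srr, had the lowest ratio, 0.606. The study prepared its libraries with a stranded kit. The strand setting used for counting is not given in the sources used here, so reads of overlapping genes may not be fully separated.

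The choice of the set changed little with the scaling. With TMM factors or DESeq2 size factors all 45 genes met the rule, each time among 50 genes. Of the 45, 33 met it in every one of the 20 tables that leave out 1 library, and the lowest ratio of any of the 45 in any of these tables was 1.36. The lowest double mutant library was less than 1.1 times the highest other library for 10 genes, and at least 1.4 times for 7. No single library outside the double mutant set the upper edge for many genes: Δrbp9 replicate 4 was the highest other library for 6 genes and Δfne replicate 4 for 5. The 45 genes had a median exon length of 1771 bases against 2203 bases over the 8814 annotated genes that could enter, and a median of the mean raw count of 385 against 612.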

How the data were processed

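The authors deposited whole-number counts of reads for each gene and library, not normalized. The submitters' notes name STAR, Subread and featureCounts with the dm6 build, and the study's methods the snakePipes RNA-seq module with the annotation of Ensembl release 96. Tool versions, the strand setting and the handling of multi-mapping reads are not given in the sources used here. A table deposited by the authors held their own DESeq2 result for the double mutant (base mean, log2 fold change, its standard error, Wald statistic, p and adjusted p) and was not used.

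CPM was the count divided by the library's total. Single mutants and wild type were compared with edgeR 4.0.16 (glmQLFit and glmQLFTest, two-sided, TMM, limma 3.58.1, R 4.3.3) on genes with a mean normalized count above 10, with Benjamini-Hochberg adjustment over all genes tested. Calls needed an adjusted p below 0.01 and, as in the study, an absolute log2 fold change above 0.5. Symbols and positions came from Ensembl's BDGP6 annotation, which matched 17252 IDs, and 306 IDs stayed unnamed. Reads are not independent molecules, and each p-value sets a difference between groups against the variation estimated between these libraries. Chi-square per degree of freedom was at least 4.86 in each of the 40 replicate pairs, so replicates differed by more than counting noise. It was 11.1 to 93.5 in wild type, 10.2 to 26.9 in Δfne, 5.15 to 16.8 in Δrbp9 and 4.86 to 17.0 in the double mutant. The fit was also run on simulated counts with the same dispersion for every gene, so that run cannot check the calls against the real spread between libraries.

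The members and the gene lists were chosen with earlier results of these data known. Genes named were the 20 members with the largest ratio, the 10 with the highest double mutant level, the 3 on each side of the threshold, called members (at most 5 per direction by adjusted p) and members found in a list. The others were named after their values were seen. Alternatives were DESeq2 1.42.0, other scalings, filters and cutoffs, all groups in a single fit, the replicate number as a block, and leaving out each library.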

Additional observations from a re-analysis of the deposited data

Results flagged for a closer look

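In 180 groups of 5 libraries (45 genes in 4 genotypes), a library stood apart from the other 4 of its group 9 times by Dixon's criterion, and chance gives about 1 in 20 groups, or 9. CG12224 was at 6.88 CPM in Δrbp9 replicate 3 and at 26.8 CPM in ΔfneΔrbp9 replicate 3, each the highest of its group. Gart was at 560.4 CPM in ΔfneΔrbp9 replicate 3, and CG12483 at 10.9 CPM in ΔfneΔrbp9 replicate 2. FBgn0028519 was low in Δfne replicate 5, at 4.04 CPM, where lncRNA:CR32368 was high, at 5.21 CPM. CG33110 stood high in Δrbp9 replicate 4, at 136.5 CPM, lncRNA:CR32553 in wild-type replicate 2, at 1.42 CPM, and Trm1 stood low in Δfne replicate 3, at 13.5 CPM.

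In the direct edgeR comparison of Δfne with Δrbp9, 9 of the 45 genes were called, against 853 of all 10568 genes tested (8.07%). The log2 difference, Δfne minus Δrbp9, was −2.99 for Fbp2, −1.67 for Fbp1, −1.30 for CG16898, −0.79 for FBgn0028519, −0.69 for CG11841, −0.63 for Lsp1gamma and −0.52 for Cyp12c1. It was 2.16 for lncRNA:CR32553 and 0.75 for lncRNA:CR32368. The calls of FBgn0028519, Lsp1gamma, Cyp12c1 and lncRNA:CR32368 did not hold in every fit without 1 library.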

How the results depend on the processing

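The number of genes that met the rule was 108 with a ratio of at least 1.2 and 6 with a ratio of at least 2, and 43 to 50 when 1 library was left out. Without the fold change cutoff, 1303 genes were called in Δfne against wild type, 1685 in Δrbp9 against wild type and 2197 between the single mutants. Leaving out 1 library gave 651 to 821, 599 to 753 and 757 to 899 called genes in these comparisons, 7 to 11, 7 to 11 and 5 to 7 called genes of the set, and set medians of 0.0604 to 0.217, 0.191 to 0.314 and −0.0926 to −0.0132. The set median between the single mutants was −0.0950 with total count alone. Where the set is concerned, 60 of 476 values of its 28 calls no longer passed under an alternative, and none changed sign; the causes were not tested. DESeq2 called 14, 11 and 9 genes of the set, among 836 of 10635, 863 of 10515 and 915 of 10564 genes tested. The main edgeR fits called 740, 723 and 853 genes over all.

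Replicate numbers did not pair the libraries: correlations of the deviations of same-numbered libraries ran from −0.48 to 0.38. With the replicate number as a block, 667, 589 and 684 genes and 9, 9 and 6 genes of the set were called, and the set medians were 0.139, 0.305 and −0.0476.

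Low counts limit the precision for 12 genes of the set with a mean raw count below 100.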
